A study of Mus musculus with 6 samples.

Results

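Chromatin accessibility was examined at 10 genes known to be induced by glucocorticoids, the adrenal steroid hormones that rise in fasting: Fkbp5, Errfi1, Mt1, Mt2, Tsc22d3, Sgk1, Zbtb16, Dusp1, Cdkn1a and Lcn2. A peak, a stretch of open DNA, belonged to a gene when the authors' table named that gene as the nearest gene start. By this rule 79 of 74076 peaks belonged to the 10 genes: 20 to Zbtb16, 19 to Tsc22d3, 12 to Fkbp5, 7 each to Sgk1 and Dusp1, 4 to Mt1, 3 each to Mt2, Errfi1 and Cdkn1a, and 1 to Lcn2. The assay was ATAC-seq, in which a transposase inserts sequencing adapters into accessible DNA, applied to liver nuclei. All animals were male C57BL/6J mice, an inbred strain, 8 weeks of age. The refed group (replicates 5, 7 and 8) had no food for 12 h from 10 am, then ate a high-sucrose diet (69% sucrose, 10% fat) for 12 h from 10 pm. The fasted group (replicates 1, 3 and 4) had no food for 12 h from 10 pm, and every mouse was killed at 10 am. Food, this particular diet and the clock hours without food changed together between the groups and cannot be told apart. Neither serum hormone nor RNA was measured in the files used here. The labels do not state that each library came from its own mouse, so p-values measure the spread between libraries.

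Glucocorticoids bind the glucocorticoid receptor, a nuclear receptor that moves into the nucleus, binds DNA at palindromic elements and opens or closes chromatin nearby. In liver the hormone supports glucose production and the breakdown of amino acids during fasting, and many receptor sites lie far from gene starts. The 10 genes include feedback regulators of hormone and growth factor signalling, metal-binding proteins, transcription factors and a cell cycle inhibitor. Most of them also answer to other signals such as stress, metals, insulin or inflammation.

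Libraries held 3238712 to 4679316 reads in peaks in refed liver and 3205634 to 4850613 in fasted liver. The median over all peaks was 19 to 33 reads per library, and the median peak of the 10 genes had a mean of 41.8 reads. Values are RPKM, in which the reads of a peak are divided by its length and by all reads in peaks of that library. Changes are differences of mean log2 RPKM, refed minus fasted, with limma's standard error. A peak was called when its limma p, adjusted by Benjamini-Hochberg over all 74076 peaks, was under 0.05. All 7 hepatocyte marker genes had peaks, 96 in all. Limma called 5 of these lower (5.21%, against 0.427% of all peaks), at only 2 of the 7 genes: 3 at Alb and 2 at Cyp2e1. It called 1 higher (1.04%, near the 0.802% of all peaks). In refed liver Alb had a called peak with a change of -1.40 and Cyp2e1 one with a change of -1.99 (limma adjusted p = 0.00154 and 0.00651). The higher call was listed under Apoa1, with a change of 1.18 (limma adjusted p = 0.0246). It lay 28922 bp before the Apoa1 start, in an intron of another transcript, NM_027498. The median change of the 96 peaks was 0.03, and 41 of them lay below zero. Of 39 peaks at 5 endothelial marker genes, limma called 2 higher (5.13%, against 0.802% of all peaks), and 0 lower. The 2 were listed under Pecam1 and Cdh5 (changes of 1.90 and 1.03). The first lay in intron 3 of 14 of Pecam1, the second in intergenic DNA 92134 bp before the Cdh5 start. The median change of the 39 peaks was -0.03, and 23 of them lay below zero. Fewer nuclei of a type cannot be told apart from less open chromatin per nucleus. Lymphocyte marker genes summed to 41.1 to 49.1 RPM, reads scaled to all reads in peaks of the library, in refed libraries and 51.5 to 55.0 RPM in fasted ones. None of their 10 peaks was called by limma, and 2 of the 10 had an unadjusted p under 0.05 (14.5% of all peaks did). The part of lymphocytes in the results was not tested. Neutrophil marker genes summed to 43.0 to 47.6 RPM in refed and 43.9 to 48.4 RPM in fasted libraries. Limma called 0 of their 8 peaks, and 3 had an unadjusted p under 0.05 (14.5% of all peaks did). Cholangiocyte marker genes summed to 77.1 to 90.5 RPM in refed and 62.7 to 78.3 RPM in fasted libraries. Kupffer cell ones summed to 22.2 to 24.4 RPM in refed and 20.1 to 28.0 RPM in fasted libraries. Those of stellate cells summed to 101 to 135 RPM in refed and 112 to 135 RPM in fasted libraries. Limma called 0 peaks of these lists.

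The promoters of Mt2, Mt1 and Sgk1 are shown because of the elements they hold. RefSeq (GRCm38.p6) gave 18 promoters, from 250 bases before to 50 after a start, for 9 of the 10 genes; Zbtb16 had no entry. Both strands were searched for the metal response core (TGCACNC or TGCGCNC) and for the full glucocorticoid element (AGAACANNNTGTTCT), in which the arm AGAACA is read once on each strand. The metal core is the site bound by the zinc-sensing factor Mtf1. It occurred 4 times in the Mt2 promoter and 3 times in the Mt1 promoter; 0.517% of 32851 RefSeq promoters held 4 or more and 1.97% held 3 or more. Of the 9 genes with a promoter entry, only Sgk1 had a full glucocorticoid element, starting 189 bases before that start, and 3 of the 32851 promoters held one (0.00913%). A looser form (GNACANNNTGTNC) was present in 2 of the 18 promoters, that of Sgk1 and that of Mt1, where it began 94 bases before the start, and in 0.475% of all promoters. These matches describe the letters and do not show binding. Below, each promoter is written in the direction of its gene, with metal cores in capitals for Mt2 and Mt1 and glucocorticoid arms, single or paired, in capitals for Sgk1.
Mt2, chr8:94172368-94172667, plus strand: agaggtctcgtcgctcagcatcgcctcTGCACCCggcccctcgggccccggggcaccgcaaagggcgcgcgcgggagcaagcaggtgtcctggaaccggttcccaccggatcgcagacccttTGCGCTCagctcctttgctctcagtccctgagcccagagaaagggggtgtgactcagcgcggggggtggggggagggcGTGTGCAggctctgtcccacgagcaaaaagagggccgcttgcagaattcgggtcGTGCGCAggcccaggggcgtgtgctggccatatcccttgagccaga
Mt1, chr8:94178839-94179138, plus strand: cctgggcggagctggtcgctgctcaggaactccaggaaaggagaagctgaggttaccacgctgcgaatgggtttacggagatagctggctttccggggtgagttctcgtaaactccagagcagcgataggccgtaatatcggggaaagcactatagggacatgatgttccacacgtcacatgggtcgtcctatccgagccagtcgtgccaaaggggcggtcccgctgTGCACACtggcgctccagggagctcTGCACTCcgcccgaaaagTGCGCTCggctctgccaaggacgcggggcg
Sgk1, chr10:21993640-21993939, plus strand: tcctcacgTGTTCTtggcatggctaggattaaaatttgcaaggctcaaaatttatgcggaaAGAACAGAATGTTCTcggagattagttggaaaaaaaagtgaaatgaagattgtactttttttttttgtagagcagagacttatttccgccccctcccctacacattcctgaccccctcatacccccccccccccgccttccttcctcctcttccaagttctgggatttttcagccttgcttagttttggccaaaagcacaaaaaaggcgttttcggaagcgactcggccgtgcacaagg

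Refed liver was less open than fasted liver at 4 of the 79 peaks: in the first intron of Fkbp5, at the end of Errfi1, at the Mt2 promoter and behind Mt1. This was 5.06% of the 79 peaks, against 0.427% of all peaks called lower and 5.21% of the peaks of the hepatocyte marker genes. Limma called 0 of the 79 higher, against 0.802% of all peaks; at an unadjusted limma p under 0.05, 12 of the 79 were lower and 6 higher, against 5.64% and 8.91% of all peaks. On the recovered reads, edgeR called 5 lower and 2 higher, both in Zbtb16, against 1.43% and 2.58% of all peaks; DESeq2 called 2 lower and 1 higher, against 0.485% and 0.822%. Limma after median centring called 5 lower and 2 higher, against 0.819% and 1.2%. The authors' deposited table lists 9 of the 79 peaks, 7 lower and 2 higher in refed liver, where it lists 1.66% and 2.81% of all peaks. The other 6 genes had no peak called by limma. Below-zero changes were found at 54 of the 79 peaks (68.4%), against 45.6% of all peaks, and the median change was -0.18 against 0.00 over all peaks. The 2 sets differ in reads: a mean of at least 10 reads was reached by 78 of the 79 peaks and by 60487 of all 74076. Each library also had 4905 to 5658 empty peaks, set to 0.9 reads. Among peaks with a mean of at least 10 reads, the median change was -0.18 against -0.0044. The share below zero was not counted among these. With 1 library left out at a time, limma called 1 to 4 of the 79 lower: 1 without refed replicate 8 or without fasted replicate 4, 2 without refed replicate 7 or without fasted replicate 1, 3 without refed replicate 5 and 4 without fasted replicate 3.

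**Figure D1:**
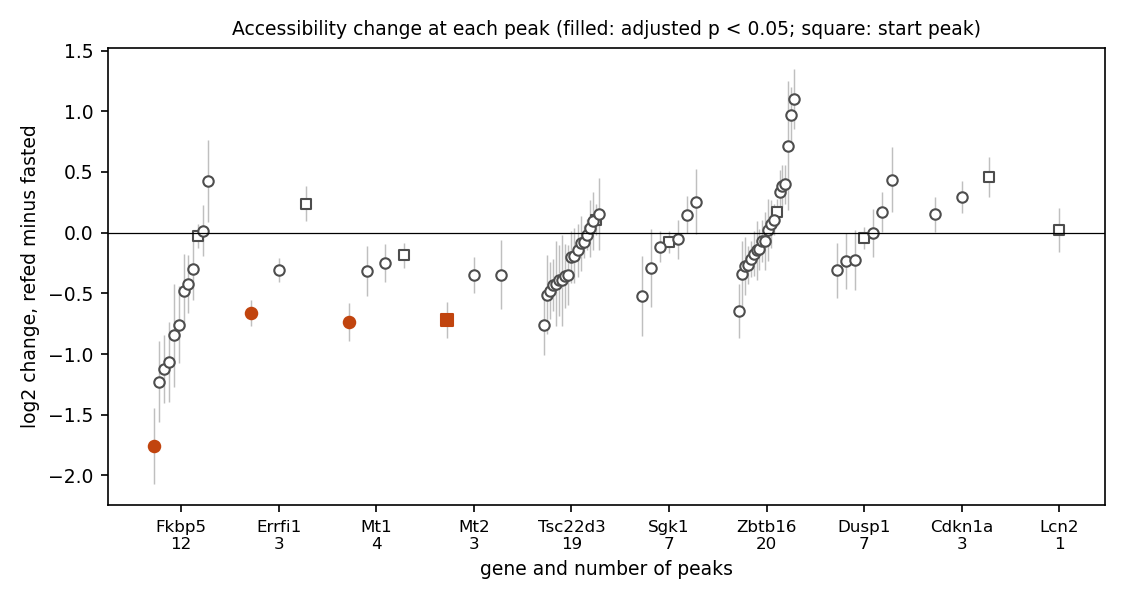
Log2 change in accessibility, refed minus fasted, at each of the 79 peaks of the 10 genes; bars are limma standard errors, squares mark the peak nearest each gene start and filled symbols mark peaks with an adjusted p under 0.05. Fkbp5 reaches -1.76 and Zbtb16 reaches 1.10, while most start peaks lie near 0.

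The peaks were also set out by their distance from the gene start, as a description. The 17 peaks within 2 kb of a start had a median change of 0.02, and 8 of them lay below zero. Among the 62 peaks farther away the median was -0.24 and 46 lay below zero. By annotation, the 36 intron peaks had a median of -0.20 against 0.00 for all intron peaks, and the 26 intergenic peaks -0.21 against 0.02. These sets of all peaks also hold peaks with few reads or none. All 4 gene-end peaks were below zero, with a median of -0.51 against -0.04 for all gene-end peaks. Promoter and 5' UTR peaks numbered 13 and had a median of 0.02 against -0.02. Mt2 was the only gene whose start peak was called.

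Fkbp5 encodes a co-chaperone of Hsp90 that lowers the hormone affinity of the glucocorticoid receptor and so acts as feedback on the hormone. Its called peak lay in intron 1 of 10, 43671 bp past the start (mm9 chr17:28579221-28579625). Accessibility there was 5.91, 5.34 and 8.97 RPKM in refed replicates 5, 7 and 8, against 23.4, 21.6 and 21.7 RPKM in fasted replicates 1, 3 and 4. The groups were well apart, and the highest refed library was below every fasted one. These values rest on 10, 7 and 17 reads in refed and 46, 28 and 36 reads in fasted libraries. The mean was 6.74 ± 1.95 RPKM in refed and 22.2 ± 1.02 RPKM in fasted liver (SD, n = 3 each). The change on the log2 scale was -1.76 ± 0.31 (SE; adjusted p = 0.0196 in limma). DESeq2 gave an adjusted p of 0.00418 and edgeR 0.00135. Without fasted replicate 4 the limma adjusted p was 0.0915, while the other single libraries left the call in place.

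Lower values in refed liver were found along the Fkbp5 gene body. Of the 10 Fkbp5 peaks beyond the start peak inside the gene, 9 had a change below zero, and 6 of the 12 Fkbp5 peaks had refed values all below the fasted values (8.57% of all peaks did). The neighbouring peak at 44392 bp, taken after its values were seen, had 11.3, 7.28 and 12.2 RPKM in refed and 23.6, 23.1 and 18.9 RPKM in fasted libraries. Its groups did not overlap either; its change was -1.12 ± 0.28, with an adjusted p of 0.0710 in limma and 0.0482 in edgeR. At 39937 bp the change was -1.23 (limma adjusted p = 0.0963) and at 57515 bp, in intron 4, it was -1.06 (limma adjusted p = 0.143). One intron peak, at 38292 bp, had a change of 0.43 with overlapping groups (limma adjusted p = 0.635). The start peak, in exon 1 of 11, was the most open of the gene, with 62.2, 64.8 and 54.8 RPKM in refed and 55.3, 68.1 and 62.0 RPKM in fasted libraries. Its groups overlapped fully and its change was -0.03 ± 0.10 (limma adjusted p = 0.990). On the log2 scale, the called peak minus the start peak was -3.20 ± 0.52 in refed and -1.47 ± 0.21 in fasted liver (SD, n = 3 each). The two-sided exact permutation p was 0.1, the smallest that 3 against 3 libraries can give. The called peak was picked for its smallest p in these same libraries, so this p is no separate test.

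The same gene body held a peak that the nearest-start rule gives to the neighbouring gene Tulp1. It lies in intron 5 of Fkbp5 (mm9 chr17:28557197-28557976), 65508 bp past the Fkbp5 start. Accessibility was 9.21, 11.5 and 11.8 RPKM in refed libraries, against 27.0, 23.6 and 27.9 RPKM in fasted ones. The groups did not overlap, and the change was -1.28 ± 0.23 (limma adjusted p = 0.0209; 0.000447 by edgeR and 0.000184 by DESeq2). Leaving out 1 library gave limma adjusted p-values of 0.0325 to 0.115, with 4 of 6 fits calling it. A second such peak in intron 8 had a change of -0.30 (limma adjusted p = 0.656).

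**Figure D2:**
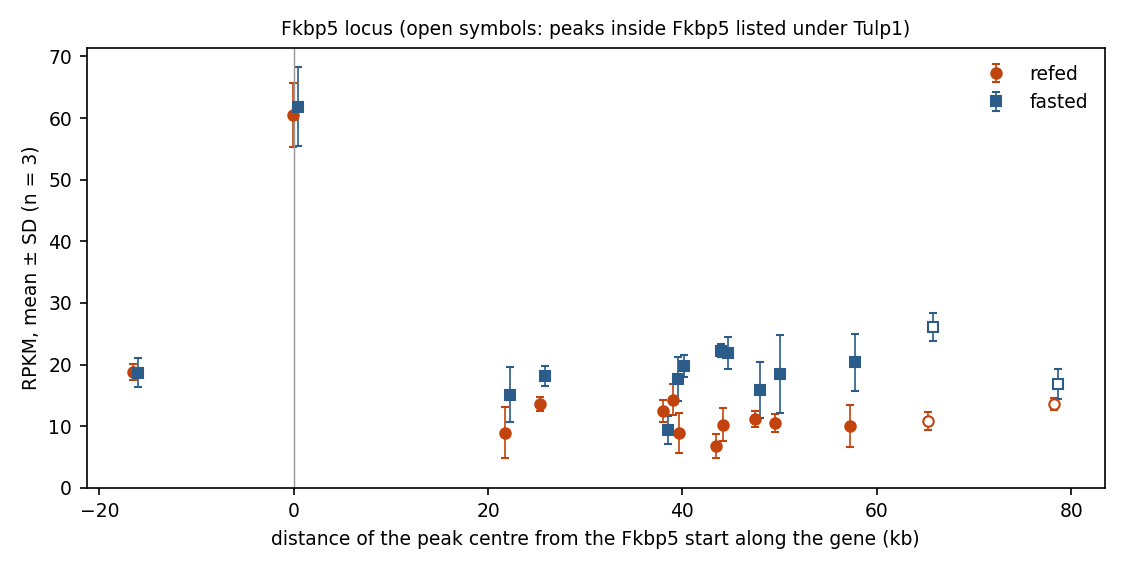
Mean RPKM ± SD (n = 3 libraries a group) at peaks of the Fkbp5 locus by distance from the gene start along the gene; refed circles and fasted squares are drawn slightly apart, and open symbols are peaks inside Fkbp5 that the table lists under Tulp1. Refed values lie below fasted values at most intron peaks, for example 6.74 against 22.2 at 43671 bp, and overlap at the start.

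Errfi1, an inhibitor of the EGF receptor that also curbs growth factor signalling in liver, had 3 peaks. The called peak sat at the end of the gene, 14540 bp past the start (mm9 chr4:150243533-150243948). It had 39.1, 36.4 and 39.6 RPKM in refed libraries, against 61.9, 65.2 and 55.3 RPKM in fasted ones. Libraries within each group were close together and the groups did not overlap. The change was -0.66 ± 0.10 (limma adjusted p = 0.0116; 0.0184 by edgeR and 0.0688 by DESeq2), and without refed replicate 8 the limma adjusted p was 0.0503. Farther out, at 16798 bp, refed libraries had 44.1, 44.7 and 50.1 RPKM and fasted libraries 59.2, 59.7 and 53.1 RPKM. Here too the groups did not overlap, but the change of -0.31 ± 0.10 did not pass (limma adjusted p = 0.163); the authors' deposited table gives this peak an FDR of 0.0287. The start peak had 45.9, 58.4 and 54.4 RPKM in refed and 35.8, 53.2 and 46.7 RPKM in fasted libraries. Its groups overlapped, with a change of 0.24 ± 0.14 (limma adjusted p = 0.487). The file annotates it to the promoter of a noncoding transcript, NR_040649, and the peak annotated to the Errfi1 promoter itself is listed under 1700045H11Rik, with 50.5 RPKM in refed and 44.3 RPKM in fasted liver (change 0.19, limma adjusted p = 0.456).

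The metallothionein genes Mt1 and Mt2 encode small cysteine-rich proteins that bind zinc and copper and are induced by metals as well as by glucocorticoids. Their starts lie 6471 bp apart, and the 7 peaks listed under them span 26541 bp of chromosome 8. All 7 had changes below zero, and 2 were called. The Mt2 promoter peak (mm9 chr8:96696151-96696874), centred 6 bp before the start, had 30.4, 24.3 and 31.0 RPKM in refed libraries, against 55.5, 42.7 and 42.9 RPKM in fasted ones. Fasted replicate 1 was the highest library, and the groups did not overlap. The change was -0.72 ± 0.15 (limma adjusted p = 0.0357; 0.00651 by edgeR and 0.0172 by DESeq2). Its limma call was lost without refed replicate 7 (adjusted p = 0.0978), refed replicate 8 (0.0856), fasted replicate 1 (0.0719) or fasted replicate 4 (0.0899). At this promoter lie the 4 metal cores printed above, although those coordinates are of another genome build.

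Behind Mt1, 4204 bp past its start (mm9 chr8:96706916-96707471), an intergenic peak had 26.7, 22.2 and 29.2 RPKM in refed libraries, against 51.2, 37.6 and 41.4 RPKM in fasted ones. Again fasted replicate 1 was highest and the groups did not overlap. The change was -0.73 ± 0.16 (limma adjusted p = 0.0417; 0.0156 by edgeR and 0.0503 by DESeq2). The limma call held only without fasted replicate 3; it was lost without refed replicate 5 (adjusted p = 0.0689), 7 (0.110) or 8 (0.0832) and without fasted replicate 1 (0.0851) or 4 (0.120). The Mt1 promoter, the most open peak of the locus, had 49.2, 62.0 and 49.3 RPKM in refed and 61.1, 60.3 and 60.1 RPKM in fasted libraries. Refed replicate 7 was the highest of all, so the groups overlapped, and the change was -0.19 ± 0.10 (limma adjusted p = 0.450). The log2 ratio of the Mt2 to the Mt1 promoter was -0.90 ± 0.39 in refed and -0.37 ± 0.21 in fasted liver (SD, n = 3 each). The difference of -0.53 had a two-sided exact permutation p of 0.1, the smallest possible here. The other 4 peaks had changes between -0.35 and -0.25 and did not pass, with limma adjusted p-values of 0.287 or more.

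**Figure D3:**
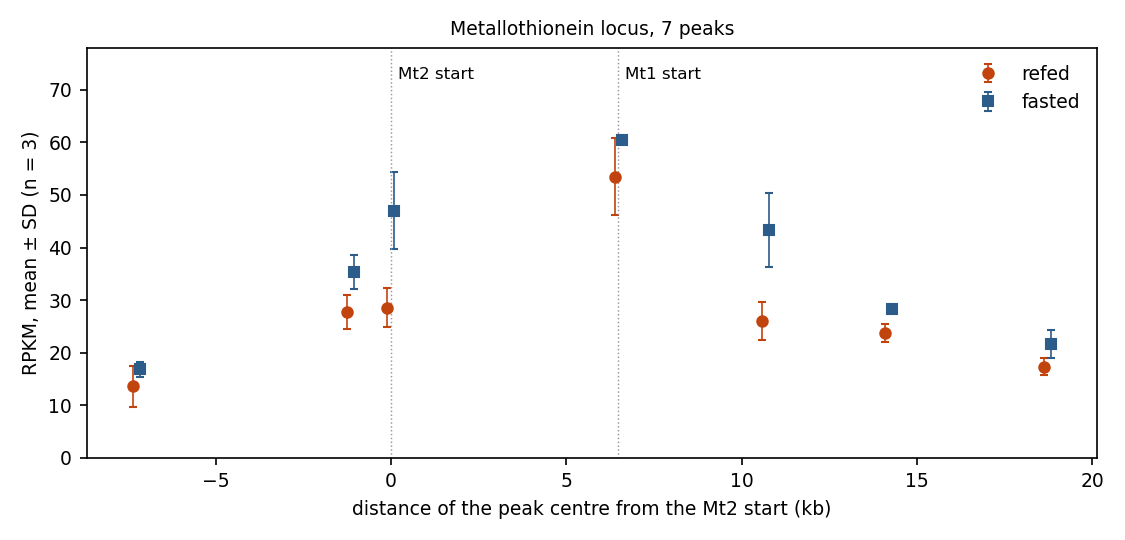
Mean RPKM ± SD (n = 3 libraries a group) at the 7 peaks of the Mt2 and Mt1 locus by distance from the Mt2 start; refed circles and fasted squares are drawn slightly apart. Refed means lie below fasted means at all 7 peaks, with the widest gaps at the Mt2 promoter (28.6 against 47.0) and behind Mt1 (26.0 against 43.4).

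Zbtb16 encodes a zinc finger transcription factor, also called PLZF, that is a common marker gene of glucocorticoid treatment in cultured cells. Its 20 peaks were spread over 138267 bp, and 10 had changes below zero and 10 above. Limma called none of them, and 5 of the 20 had an unadjusted p under 0.05 (14.5% of all peaks did). The peak with the smallest p lay in intron 2 of 6, 16396 bp past the start (mm9 chr9:48627156-48628152), and ran opposite to the called peaks of the other genes. It had 23.3, 33.1 and 29.2 RPKM in refed libraries, against 15.9, 15.3 and 9.32 RPKM in fasted ones. Every refed library was above every fasted one. The change was 1.10 ± 0.25, just outside the threshold in limma (adjusted p = 0.0522) and inside it in edgeR (0.00224), in DESeq2 (0.00149) and in limma after median centring (0.0268). In limma with quantile normalization the adjusted p was 0.139, and without the intensity trend it was 0.144. Leaving out 1 library gave limma adjusted p-values of 0.0340 (fasted replicate 1), 0.0444 (fasted replicate 3), 0.0608 (refed replicate 5), 0.146 (fasted replicate 4), 0.165 (refed replicate 7) and 0.186 (refed replicate 8). The authors' deposited table gives an FDR of 2.28e-05.

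A second intron 2 peak of Zbtb16, at 80375 bp, was taken after its values were seen. Refed libraries had 24.1, 35.8 and 24.4 RPKM there and fasted libraries 16.9, 14.2 and 11.6 RPKM, without overlap. Its change was 0.97 ± 0.23, with an adjusted p of 0.0609 in limma, 0.0211 in edgeR and 0.0736 in DESeq2. Between these lay a peak at 75366 bp with 13.9, 14.8 and 16.8 RPKM in refed and 19.1, 24.6 and 28.5 RPKM in fasted libraries, also without overlap but in the other direction (change -0.65 ± 0.22, limma adjusted p = 0.182). The Zbtb16 promoter, its most open peak, had 55.3, 71.8 and 59.6 RPKM in refed and 50.6, 59.6 and 55.3 RPKM in fasted libraries, which overlapped (change 0.17 ± 0.11, limma adjusted p = 0.532). Another 3 peaks inside Zbtb16 that are listed under Nnmt had changes of -0.22, 0.07 and -0.45 and were not called by limma.

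**Figure D4:**
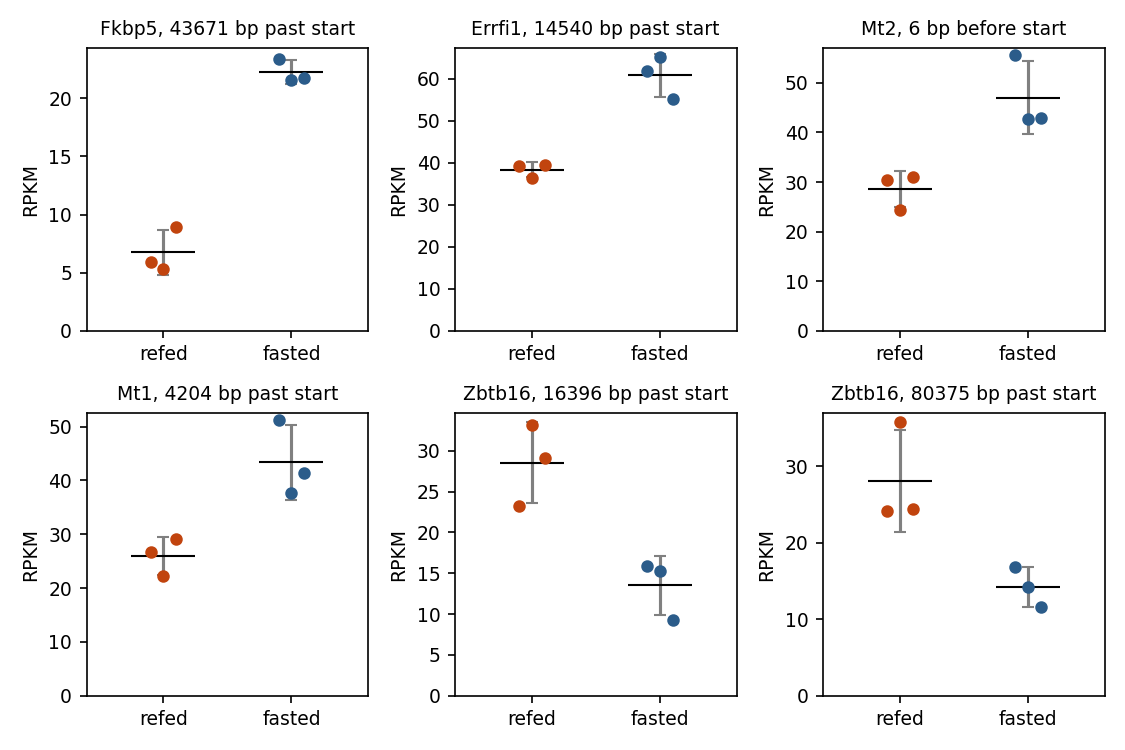
RPKM in each library, refed on the left and fasted on the right, at the 4 called peaks and at the 2 Zbtb16 intron peaks that edgeR called; lines are means and bars SDs of 3 libraries. The groups do not overlap in any panel: refed libraries lie lower for Fkbp5, Errfi1, Mt2 and Mt1 and higher for Zbtb16.

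Tsc22d3, on the X chromosome, encodes GILZ, an anti-inflammatory leucine zipper protein. Limma called none of its 19 peaks, and 1 had an unadjusted p under 0.05; 15 had changes below zero. The peak with the smallest p lay at a gene end 3375 bp past the start of the transcript NR_122039. It had 13.7, 13.3 and 12.3 RPKM in refed libraries, against 29.6, 19.0 and 19.3 RPKM in fasted ones. The groups did not overlap, with a wide spread among the fasted libraries, and the change was -0.76 ± 0.25 (limma adjusted p = 0.158). Fasted replicate 1 was the highest of the 6 libraries at 13 of the 19 Tsc22d3 peaks (68.4%), against 19.0% of all peaks. At the start peak, centred 13 bp before the start of the transcript NM_010286, refed libraries had 38.8, 40.3 and 35.6 RPKM and fasted libraries 38.7, 31.9 and 36.4 RPKM. These overlapped, with a change of 0.11 ± 0.13 (limma adjusted p = 0.793). The promoter peak of NM_001077364, a transcript with another start, had a change of 0.15 ± 0.30 (limma adjusted p = 0.908).

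Sgk1 encodes a kinase that acts on ion channels and transporters downstream of insulin and steroid hormones. None of its 7 peaks was called by limma and 0 had an unadjusted p under 0.05. The strongest peak, at the promoter of the transcript NM_011361, had 57.7, 52.4 and 57.1 RPKM in refed and 55.7, 59.9 and 60.6 RPKM in fasted libraries. The groups overlapped, with a change of -0.08 ± 0.09 (limma adjusted p = 0.790). At the promoters of NM_001161850 and NM_001161849 the changes were -0.12 ± 0.13 and 0.15 ± 0.15, neither called by limma. The full glucocorticoid element printed above was not placed in any of these peaks, whose build differs. Its peak with the smallest p, 15572 bp past the start, had 9.17, 10.6 and 9.01 RPKM in refed and 11.1, 12.0 and 19.7 RPKM in fasted libraries. The groups did not overlap, but only fasted replicate 4 stood well above the rest (change -0.52 ± 0.33, limma adjusted p = 0.518).

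Dusp1 encodes a phosphatase that switches off MAP kinases. Limma called 0 of its 7 peaks and 0 had an unadjusted p under 0.05. Its promoter was the most open peak of the 10 genes in both groups, with 69.1, 64.0 and 62.0 RPKM in refed and 61.5, 71.8 and 68.0 RPKM in fasted libraries. These overlapped fully (change -0.04 ± 0.09, limma adjusted p = 0.915). Its peak with the smallest p, 17078 bp before the start, had 13.4, 26.4 and 23.8 RPKM in refed and 14.6, 15.1 and 15.5 RPKM in fasted libraries. Refed replicate 5 was the lowest of the 6 there and the others of its group the highest (change 0.44 ± 0.27, limma adjusted p = 0.503).

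Cdkn1a encodes p21, an inhibitor of cyclin-dependent kinases that halts the cell cycle. Its 3 peaks all had changes above zero, with 2 at an unadjusted p under 0.05 (14.5% of all peaks), and limma called none. The promoter had 34.8, 33.5 and 36.4 RPKM in refed libraries, against 20.0, 29.2 and 28.2 RPKM in fasted ones. The groups did not overlap, and fasted replicate 1 was the lowest by far. The change was 0.46 ± 0.17 (limma adjusted p = 0.213). Lcn2 encodes a secreted protein that binds bacterial iron carriers and is made by hepatocytes and neutrophils. Its single peak, at the promoter, had 25.1, 22.1 and 26.6 RPKM in refed and 27.3, 25.2 and 20.4 RPKM in fasted libraries. The groups overlapped, with a change of 0.02 ± 0.18 (limma adjusted p = 0.999).

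Reads were also summed over all peaks of each gene, so that each gene gave a single value in RPM. Of the 10 genes, Mt2 alone was called by limma, and it was lower in refed liver; 0.54% of 19059 genes were called lower and 1.45% higher. Mt2 had 46.9, 42.3 and 53.0 RPM in refed libraries, against 75.9, 62.1 and 65.3 RPM in fasted ones. The groups did not overlap, and the change was -0.51 ± 0.11 (limma adjusted p = 0.0390; 0.0415 by edgeR and 0.0497 by DESeq2). With 1 library left out the limma adjusted p ran from 0.0207 to 0.157, and the call held only without fasted replicate 3. Mt1 had 69.2, 78.1 and 70.1 RPM in refed and 96.3, 88.9 and 89.0 RPM in fasted libraries, without overlap (change -0.34 ± 0.08, limma adjusted p = 0.0693). Fkbp5, summed with its start peak, had 119, 118 and 116 RPM in refed and 135, 150 and 140 RPM in fasted libraries, also without overlap (change -0.27 ± 0.08, limma adjusted p = 0.105). The other 7 genes had limma adjusted p-values of 0.318 to 0.990. Of these, the groups of Errfi1 (refed lower) and Cdkn1a (refed higher) did not overlap. How many of all gene sums were without overlap was not counted. Among all single peaks, 8.57% were without overlap with refed lower and 10.5% with refed higher.

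**Figure D5:**
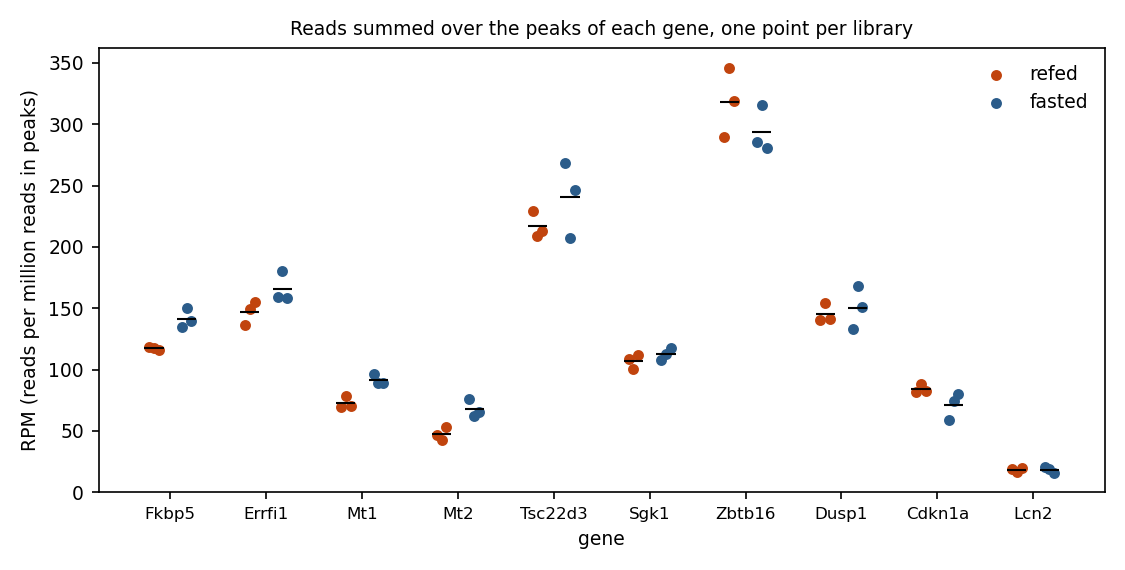
Reads summed over the peaks of each of the 10 genes in RPM, with a point per library and the group mean as a line; refed is left of fasted. The groups of Mt2, Mt1 and Fkbp5 do not overlap and refed is lower, as for Errfi1, whereas Sgk1, Dusp1 and Lcn2 overlap.

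Related genes gave a setting for these values. In a list of 21 other glucocorticoid-responsive genes, limma called 15 of 184 peaks lower (8.15%, against 0.427% of all peaks), at 9 genes. It called 3 higher (1.63%, against 0.802% of all peaks), and the median change was -0.08. Tat and Tdo2 held 4 of the lower calls each, and Gadd45b had 1 lower and 1 higher call. Lower calls included peaks at Tdo2 (change -2.80, limma adjusted p = 0.000617), Tat (-2.06, 0.00856), Sds (-2.04, 0.00856) and Klf15 (-1.60, 0.00291). Each of these held in 6 of 6 limma fits with a library left out. Less stable were the lower calls at Ddit4 and Agt. The peak beyond Ddit4, an mTOR inhibitor, had 21.9, 21.9 and 24.2 RPKM in refed and 39.5, 40.6 and 33.2 RPKM in fasted libraries. Its groups did not overlap (change -0.74 ± 0.15, adjusted p = 0.0321 in limma, 0.00400 in edgeR and 0.00969 in DESeq2). Its limma call was lost on leaving out any of the 6 libraries (adjusted p = 0.0587 to 0.0916). A peak before Agt, the precursor of angiotensin, had 22.0, 24.7 and 27.3 RPKM in refed and 37.3, 44.4 and 36.3 RPKM in fasted libraries. It too was without overlap (change -0.67 ± 0.15, limma adjusted p = 0.0465), but edgeR (0.0838) and DESeq2 (0.323) did not call it. In limma its call was also lost without any 1 of the 6 libraries (0.0529 to 0.124). In the other direction, a peak past Igfbp1, an insulin-like growth factor binding protein gene, had 31.7, 36.1 and 29.0 RPKM in refed and 17.1, 17.6 and 8.45 RPKM in fasted libraries. It was without overlap too (change 1.23 ± 0.27, limma adjusted p = 0.0423), and 2 of the 6 fits with a library left out called it (0.0258 to 0.128). A peak before Lpin1, which encodes a phosphatidate phosphatase, had 54.2, 50.2 and 40.5 RPKM in refed and 32.2, 29.5 and 31.7 RPKM in fasted libraries. Its change was 0.62 ± 0.13 (limma adjusted p = 0.0409; 0.173 by DESeq2), called in 1 of 6 such fits (0.0404 to 0.144).

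In a list of 19 genes of hormone handling and the receptor complex, with 150 peaks, 1 peak was called lower and 1 higher (0.667% each, near the 0.427% and 0.802% of all peaks), and the median change was 0.01. The higher one lay 8217 bp before Serpina6, which encodes the corticosteroid-binding globulin that carries the hormone in blood. It had 15.3, 18.7 and 26.6 RPKM in refed libraries, against 7.25, 4.98 and 5.47 RPKM in fasted ones, without overlap (change 1.76 ± 0.35, limma adjusted p = 0.0296; called in 3 of 6 fits with a library left out, 0.0231 to 0.182). The lower one belonged to Akr1d1, a reductase that inactivates steroid hormones, with 20.7, 16.3 and 19.9 RPKM in refed and 37.4, 30.8 and 30.6 RPKM in fasted libraries (change -0.80 ± 0.17, limma adjusted p = 0.0454; 0.0645 by DESeq2). Its limma call was lost without any 1 of the 6 libraries (0.0617 to 0.126). No peak of the receptor gene Nr3c1 was called by limma. Of 23 peaks at genes of zinc and metal handling, limma called 1 higher (4.35%, against 0.802% of all peaks) and 0 lower. The called peak lay at the 5' UTR of the metal exporter gene Slc30a10. It had 40.0, 49.1 and 43.1 RPKM in refed and 15.2, 27.8 and 22.9 RPKM in fasted libraries, and so was higher in refed liver while the metallothionein peaks were lower (change 1.04 ± 0.20, limma adjusted p = 0.0251; 0.00895 to 0.0937 with a library left out, called in 3 of 6 fits). Of 113 peaks at partners and paralogues of the 10 genes, 1 was called higher (0.885%, near the 0.802% of all peaks) and 0 lower. It lay in intron 1 of Nedd4l, a ubiquitin ligase regulated by Sgk1. Refed libraries had 42.3, 40.6 and 42.2 RPKM there and fasted libraries 25.8, 23.2 and 21.4 RPKM, without overlap (change 0.83 ± 0.14, limma adjusted p = 0.0148; 0.0101 to 0.0811 with a library left out, called in 4 of 6 fits).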

How the data were processed

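Per the labels, 3 refed and 3 fasted ATAC-seq libraries of liver were made from about 50000 nuclei each, isolated from 50 to 100 mg of tissue. Per the submitters' processing notes, the tools included cutadapt, Bowtie2, MACS2 and HOMER with the mm9 genome; no version, setting or transposase shift is stated there. Unique reads without duplicates were quantified over 1 merged peak set, per the file headers. The authors deposited RPKM scaled to each library's reads in the listed peaks, so differences between libraries in how many reads fell into peaks are lost, and the log2 of these values. The authors set an empty peak to the value of 0.9 reads, worked out from the values. Whole read counts were recovered from the deposited RPKM for 100% of values (tolerance 0.01 reads) and equalled the counts in the authors' edgeR table at all 3314 peaks there. That deposited table also gives p-values, FDRs and log2 fold changes. Spreadsheet damage to the symbols of 91 peaks was repaired through Entrez IDs.

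Limma 3.58.1 (R 4.3.3, intensity trend, no filter, covariate or pseudocount) was fitted to log2 RPKM of all 74076 peaks. Alternatives were edgeR 4.0.16 (quasi-likelihood, TMM, 61067 peaks kept), DESeq2 1.42.0 (no adjusted p for 18693 peaks), no trend, median centring, quantile normalization, log2(RPKM + 1), a mean of at least 10 reads, and leaving out each library. Gene sums used limma on log2 of reads plus 1, scaled to RPM. Scripts were tested on simulated data. The rule for naming took the peak nearest to the start, the one with the smallest p and every called one of each gene. For other genes it took the called peak with the smallest p. Other peaks described fell outside this rule, and their values were known when they were named. Among these were Fkbp5 at 39937, 57515 and 38292 bp, Errfi1 at 16798 bp and Zbtb16 at 75366 bp. The members and lists were chosen with earlier results of these data known. Coordinates are 1-based mm9 except RefSeq promoters (GRCm38.p6).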

Additional observations from a re-analysis of the deposited data

How the results depend on the processing

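The 4 lower calls among the 79 peaks became 2 with DESeq2 and 0 without the intensity trend or with quantile normalization, and 1 to 4 with a library left out. Without the trend, limma called 0 peaks of any gene in either direction; with quantile normalization it called 23 lower and 71 higher. The 0 higher calls among the 79 became 2 with edgeR or median centring, 1 with DESeq2 or a mean of at least 10 reads, and 0 to 2 with a library left out. Over all peaks, the 316 lower calls became 876 with edgeR, 607 with median centring and 48 to 211 with a library left out; the 594 higher calls became 1573 with edgeR and 77 to 970 with a library left out. The single lower gene sum became 0 without the trend and 0 to 1 with a library left out, and was kept at 1 with edgeR, DESeq2, median centring and peaks within 10 kb or 100 kb. Among values of single named peaks under these alternatives, 21 lost their call, 6 gained one, 193 stayed on their side of the threshold and 0 changed sign when called. All 21 losses fell on the 4 called peaks. Most of the 193 were values of uncalled peaks that stayed uncalled. No paired analysis was possible because the groups share no replicate number. The cause of these shifts was not tested. Low reads limit the intron peaks of Fkbp5, where a refed library held as few as 7 reads at the called peak.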
